A study of Homo sapiens with 5 samples.

Results

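Some transcripts differed at least 3-fold between the pair of ribosome profiling libraries that carry the same genotype label, and these discordant transcripts are described here. They were selected by a rule on the measured levels. The level is given as CPM, the footprint count of a transcript over the sum of its library after the usual scaling, and a transcript was a member where the 2 QTGAL knockout libraries, or the 2 QTMAN knockout libraries, lay at least 3-fold apart with the higher at 5 CPM or more. A block of neighbouring rows and 1 further transcript were left out by the rule, and 2 transcripts among them would have met it for QTGAL knockout and 0 for QTMAN knockout. Of 182398 transcripts listed, 115 were members, 77 for QTGAL knockout, 61 for QTMAN knockout and 23 for both. Members of the same genotype within 20 rows of each other were joined into a locus, which gave 13 loci for QTGAL knockout and 14 for QTMAN knockout. A QTGAL and a QTMAN locus were taken as the same only where they shared a member, which gave 23 in all as 4 were the same. The values that chose the members are given as a description, with no test.

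The libraries came from HEK293T, an adherent human embryonic kidney cell line, with the genotype labels QTRT1 KO (1 library), QTGAL KO (2 libraries) and QTMAN KO (2 libraries). The labels give no other treatment, and no parental control library is analysed. The labels name neither clones nor separate cultures, and the meaning of the numbers in the titles is not given there. The second number in the title is 2 for QTMAN replicate 1 and 1 for the other 4 libraries. Replicates are numbered in accession order, and a p-value reflects only how these libraries vary, possibly for technical reasons. RNA levels were not analysed, so more mRNA and more ribosomes per mRNA cannot be told apart. The libraries are bulk, so fewer cells with a transcript and less of it per cell cannot be told apart either. Values of a pair are given with replicate 1 first.

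Queuosine is a modified nucleoside that takes the place of wobble guanosine in the anticodons of the tyrosine, histidine, asparagine and aspartate tRNAs. The enzyme that exchanges the base has QTRT1 as its catalytic part. QTGAL then adds galactose to queuosine in the tyrosine tRNA, and QTMAN adds mannose in the aspartate tRNA. In ribosome profiling, RNase digests the mRNA outside the ribosome, and the protected fragments are sequenced, so that the count on a coding sequence reflects how many ribosomes were on it. A difference between libraries of the same genotype is part of the spread against which genotypes are compared.

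Counts summed to between 12002044 in QTGAL replicate 2 and 25291912 in QTMAN replicate 2. The level of 5 CPM thus stands for between 60 counts in the former and 126 counts in the latter. Transcripts carry identifiers with no gene beside them in the tables, and 0 of the 115 members matched an identifier in the RefSeq gene table used. No gene is named for this reason, the knocked-out genes were not checked, and no markers of HEK293T cells could be read. Loci are given by their row numbers in the tables, and each is described by the member with the highest count over its pair of libraries. The deposited length is read as codons. Among transcripts with 5 CPM or more in at least 1 library of the pair, 0.28% were discordant between the QTGAL knockout libraries (77 of 27490) and 0.226% between the QTMAN knockout libraries (61 of 27016).

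At the edge of the rule, the closest QTGAL knockout member stood 3.004-fold apart and the closest transcript outside it 2.95-fold. For QTMAN knockout these were 3.26-fold and 2.75-fold. The lowest level in the higher library was 5.08 CPM among QTGAL members and 5.06 CPM among QTMAN members, while the nearest transcripts outside were at 4.999 and 4.98 CPM. Between 2.5-fold and 3-fold there were 22 further transcripts for QTGAL knockout and 11 for QTMAN knockout. All 27 highest-count members had a 95% exact (Clopper-Pearson) counting interval of the fold whose lower bound lay above 2, and for 7 of 13 QTGAL and 9 of 14 QTMAN loci it lay at 3 or above. These intervals cover counting error only. No molecular identifiers are mentioned in the labels, so repeat copies of a fragment cannot be told apart and the intervals may be too narrow. They rest on the values that chose the members, so bounds above 2 follow largely from the rule and lend the folds no further weight.

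At the QTGAL knockout loci, replicate 2 was the higher library at 12 of 13 and replicate 1 at 1. Which of the pair stood out was read from the distance of each, on the scale log2(CPM + 0.5), to the median of the 3 libraries of other genotypes. Replicate 1 stood out at 8 loci and lay below that median at all of them. Replicate 2 stood out at 5, above the median at 4 and below it at 1. The distances of replicates 1 and 2 were nearly equal in size at row 88831, -1.837 and 1.839, and at row 82891, -0.673 and 0.703. With 0.1 in place of 0.5 added to the CPM, replicate 1 stood out at 76.9% of the loci in place of 61.5%. The median fold at the highest-count members was 3.99, with a range from 3.01 to 68.9.

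**Figure D1:**
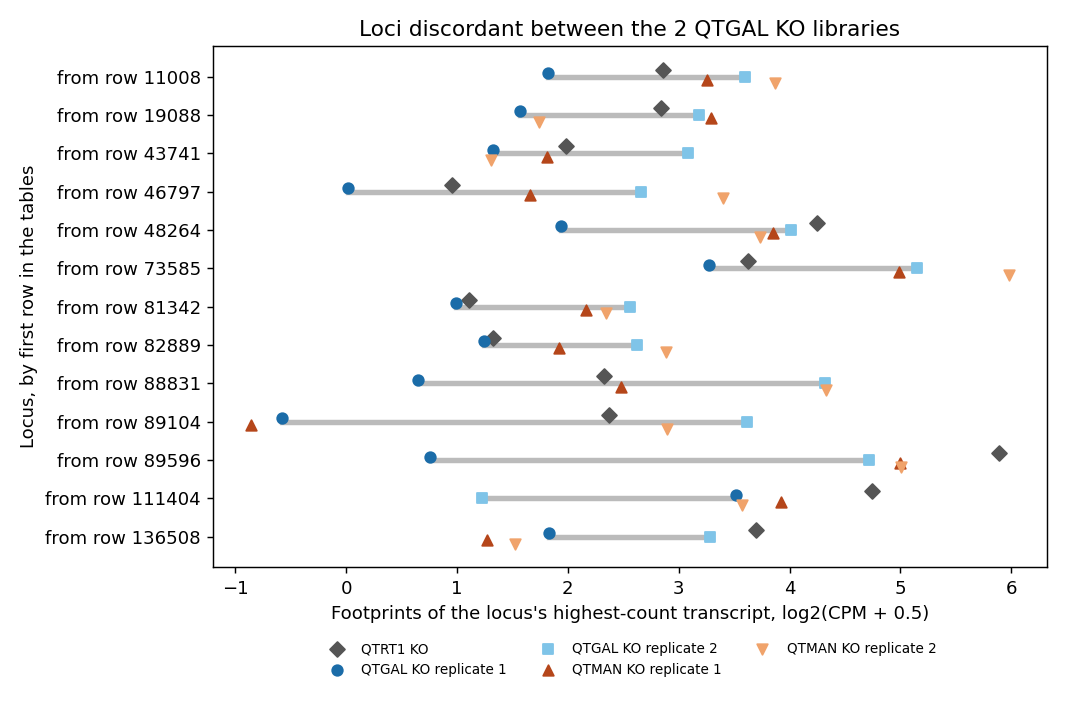
Footprint level, as log2(CPM + 0.5), of the highest-count transcript of each of the 13 loci discordant within QTGAL knockout; points are single libraries and the grey bar joins the 2 QTGAL knockout libraries. Replicate 1 (dark blue) is the lower end of the bar at 12 loci, and at rows from 111404 it is the upper end.

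At 3 QTGAL loci the library that stood out lay at least 3-fold beyond each of the other 4. The first was at rows 89596 to 89630 and held 21 members, of which 16 had a length of 315 codons. Its transcript uc033fan.1, of 315 codons, stood at 58.8 CPM in the QTRT1 library, 1.19 then 25.7 CPM in the QTGAL pair, and 31.4 then 31.6 CPM in the QTMAN pair. QTGAL replicate 1 was the only low library, with 28 counts against 309 in replicate 2, which is a 21.6-fold difference in CPM (95% interval 14.6 to 33.02). QTGAL replicate 2 and both QTMAN libraries lay within 3-fold of the QTRT1 library. At rows 48264 and 48265, of 228 codons, the levels were 18.5 CPM in the QTRT1 library, 3.32 then 15.7 CPM in the QTGAL pair and 13.9 then 12.8 CPM in the QTMAN pair. Again QTGAL replicate 1 alone was low, by 4.71-fold against its pair (95% interval 3.60 to 6.22).

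The third of these loci went the other way. Its transcript uc001rqu.4, of 1488 codons at row 111404, stood at 26.4 CPM in the QTRT1 library, 10.9 then 1.83 CPM in the QTGAL pair, and 14.6 then 11.4 CPM in the QTMAN pair. Here QTGAL replicate 2 was the single low library, with 22 counts against 257 in replicate 1, a 5.97-fold difference in CPM (95% interval 3.86 to 9.70). It was the only QTGAL locus with replicate 1 above replicate 2, and its other member, of 1419 codons, showed the same with 10.8 and 1.83 CPM.

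At 3 further QTGAL loci the QTRT1 library lay near QTGAL replicate 1. Transcript uc003xed.5, of 917 codons at row 73587, stood at 11.9 CPM in the QTRT1 library, 9.16 then 35.1 CPM in the QTGAL pair, and 31.2 then 62.4 CPM in the QTMAN pair. QTGAL replicate 1 thus lay beside the QTRT1 library and replicate 2 beside QTMAN replicate 1, with 3.83-fold between the QTGAL libraries (95% interval 3.24 to 4.53). A like order was seen at rows 81342 and 81343, of 347 codons and with identical counts: 1.65 CPM in the QTRT1 library, 1.49 then 5.42 CPM in the QTGAL pair, and 3.98 then 4.59 CPM in the QTMAN pair. It was also seen at rows 82889 to 82894, where the member of 2020 codons stood at 2.01 CPM in the QTRT1 library, 1.87 then 5.67 CPM in the QTGAL pair, and 3.29 then 6.88 CPM in the QTMAN pair. In these 3 loci the QTRT1 library and QTGAL replicate 1 were the 2 lowest.

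At rows 11008 to 11011 the member of 139 codons stood at 6.75 CPM in the QTRT1 library, 3.03 then 11.6 CPM in the QTGAL pair, and 9.07 then 14.1 CPM in the QTMAN pair, so only QTGAL replicate 1 lay more than 3-fold under the highest library. At rows 43741 and 43742 it was QTGAL replicate 2 that stood apart, upward: the member of 378 codons stood at 3.45 CPM in the QTRT1 library, 2.0 then 8.0 CPM in the QTGAL pair, and 3.02 then 1.98 CPM in the QTMAN pair. The shorter member there, of 177 codons, stood at 6.75 CPM in QTGAL replicate 2 and between 0.830 and 2.16 CPM in the other 4 libraries. Among the rows not left out, it was the only transcript with QTGAL replicate 2 alone on the high side. At rows 136508 and 136509 QTGAL replicate 2 was high together with the QTRT1 library. The member of 1705 codons stood at 12.5 CPM in the QTRT1 library, 3.07 then 9.25 CPM in the QTGAL pair, and 1.91 then 2.37 CPM in the QTMAN pair.

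At the QTMAN knockout loci, replicate 1 was the higher library at 10 of 14 and replicate 2 at 4. Replicate 1 stood out at 9 loci, above the median of the libraries of other genotypes at 7 and below it at 2. Replicate 2 stood out at 5, above at 2 and below at 3. The median fold was 5.18, and for 6 loci the library that stood out lay at least 3-fold beyond each of the other 4. A library on the low side was counted only where the other 4 were at 5 CPM or more.

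**Figure D2:**
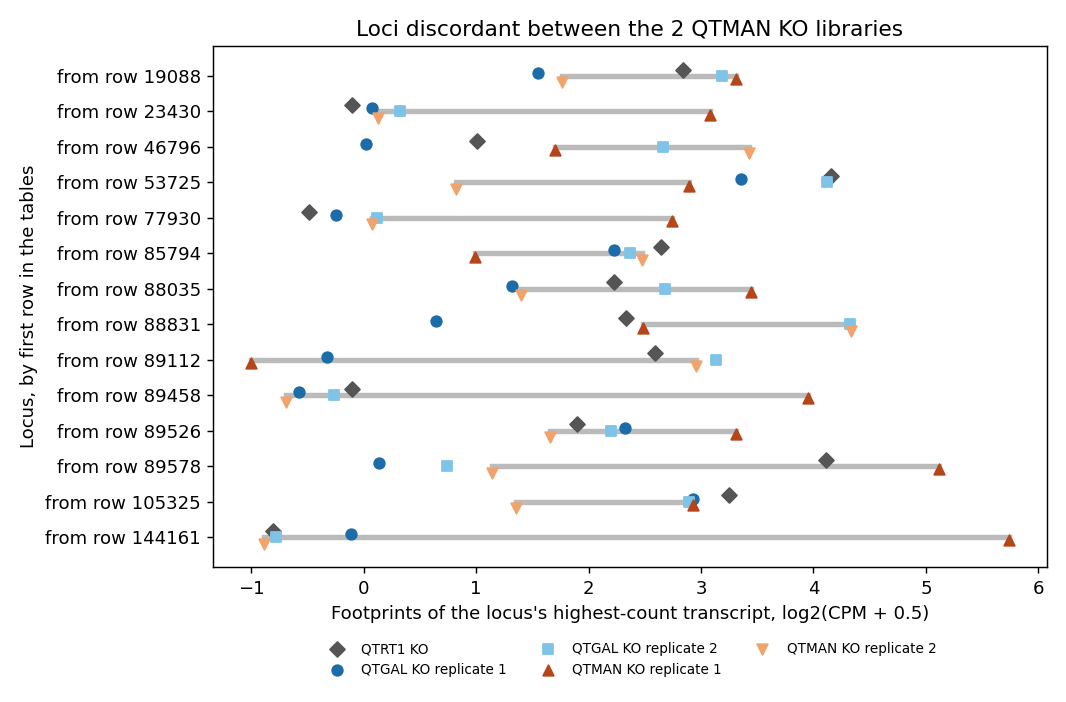
Footprint level, as log2(CPM + 0.5), of the highest-count transcript of each of the 14 loci discordant within QTMAN knockout; points are single libraries and the grey bar joins the 2 QTMAN knockout libraries. At the loci from rows 23430, 77930, 89458 and 144161 QTMAN replicate 1 (dark triangle) stands alone at the upper end, with the other 4 libraries together near 0 CPM.

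At 4 loci QTMAN replicate 1, the library with its own second title number, alone was high, and the other 4 libraries were under 1 CPM. What that number stands for and the library itself cannot be told apart. Transcript uc002flb.5, of 196 codons at row 144161, stood at 0.0718 CPM in the QTRT1 library, 0.426 then 0.0833 CPM in the QTGAL pair, and 52.8 then 0.0395 CPM in the QTMAN pair. The counts were 996 in QTMAN replicate 1 and 1 in replicate 2, which gives a ratio of 1335.5 with a 95% interval from 239 to 52804. The locus held 6 members of 74 to 211 codons at rows 144161 to 144168, with 6 distinct sets of counts, and QTMAN replicate 1 lay between 19.2 and 52.8 CPM over them.

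At rows 89458 to 89460, of 319 codons, 3 members shared the same counts, 282 in QTMAN replicate 1 and 3 in replicate 2. They stood at 15.0 CPM in QTMAN replicate 1, 0.119 CPM in replicate 2, 0.431 CPM in the QTRT1 library, and 0.170 then 0.333 CPM in the QTGAL pair, a ratio of 126 within QTMAN knockout (95% interval 42.7 to 615). At rows 23430 to 23446, 9 members of 330 to 459 codons stood between 7.85 and 7.95 CPM in QTMAN replicate 1. The longest had 0.431 CPM in the QTRT1 library, 0.554 then 0.750 CPM in the QTGAL pair, and 0.593 CPM in QTMAN replicate 2, 13.4-fold below replicate 1 (95% interval 7.87 to 24.6). The fourth was a single row, 77930, of 311 codons, with 6.2 CPM in QTMAN replicate 1 and 0.554 CPM in replicate 2, against 0.216 CPM in the QTRT1 library and 0.341 then 0.583 CPM in the QTGAL pair.

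At 3 further loci QTMAN replicate 1 stood out upward, with another library nearer to it. Transcript uc004ffl.4, of 370 codons at row 89582, stood at 16.8 CPM in the QTRT1 library, 0.596 then 1.17 CPM in the QTGAL pair, and 34.2 then 1.70 CPM in the QTMAN pair. The QTRT1 library and QTMAN replicate 1 formed the high set and the other 3 libraries the low set, with a 20.1-fold difference within QTMAN knockout (95% interval 14.8 to 28.1). At rows 88035 to 88045, of 633 codons and with identical counts, the levels were 4.17 CPM in the QTRT1 library, 2.0 then 5.92 CPM in the QTGAL pair, and 10.4 then 2.14 CPM in the QTMAN pair. The QTGAL libraries differed 2.95-fold here, so this was also the closest transcript outside the rule for QTGAL knockout. At rows 89526 and 89527 the member of 618 codons stood at 3.23 CPM in the QTRT1 library, 4.52 then 4.08 CPM in the QTGAL pair, and 9.44 then 2.65 CPM in the QTMAN pair.

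QTMAN replicate 2 alone was low at 2 loci. The member of 685 codons at row 53728 stood at 17.3 CPM in the QTRT1 library, 9.76 then 16.9 CPM in the QTGAL pair, and 6.95 then 1.27 CPM in the QTMAN pair. Both QTMAN libraries were below the other 3, with 5.49-fold between them (95% interval 3.71 to 8.35). At rows 105325 and 105326 the member of 4558 codons stood at 8.98 CPM in the QTRT1 library, 7.12 then 6.92 CPM in the QTGAL pair, and 7.10 then 2.06 CPM in the QTMAN pair, so that 4 libraries were close and QTMAN replicate 2 was apart. At row 85794, of 688 codons, QTMAN replicate 1 was the lowest library with 1.48 CPM, less than 3-fold below the nearest of the other 4, which stood between 4.18 and 5.75 CPM.

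A set of 4 loci was discordant within both genotypes, 30.8% of the QTGAL loci and 28.6% of the QTMAN loci. Replicate 2 was the higher library in both genotypes at 3 of them, and at the remaining locus QTGAL replicate 2 and QTMAN replicate 1 were the higher ones. Transcript uc010nqy.4, of 2733 codons at row 88832, stood at 4.53 CPM in the QTRT1 library, 1.07 then 19.5 CPM in the QTGAL pair, and 5.09 then 19.7 CPM in the QTMAN pair. The replicates numbered 2 were close to each other, the QTRT1 library and QTMAN replicate 1 formed a middle level, and QTGAL replicate 1 was lowest. The fold was 18.3 within QTGAL knockout at row 88831 (95% interval 12.1 to 28.9) and 3.86 within QTMAN knockout (95% interval 3.10 to 4.86). Transcript uc003irj.2, of 434 codons at row 46799, stood at 1.51 CPM in the QTRT1 library, 0.511 then 5.83 CPM in the QTGAL pair, and 2.76 then 10.2 CPM in the QTMAN pair. Its locus held 8 members for QTGAL and 13 for QTMAN knockout, and the libraries were ordered as at row 88832.

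The third locus in both lists, rows 89104 to 89124, was nearly without footprints in QTGAL replicate 1 and QTMAN replicate 1. It held 21 QTGAL members, 18 of them of 190 codons and with few distinct counts, so footprints of like transcripts may have been counted more than once. At row 89120 the levels were 4.67 CPM in the QTRT1 library, 0.170 CPM (4 counts) and 11.7 CPM (141 counts) in the QTGAL replicates, and 0.0530 CPM (1 count) and 6.92 CPM (175 counts) in the QTMAN replicates. The member of 905 codons at row 89122 had 5.53 CPM in the QTRT1 library, 0.298 then 8.25 CPM in the QTGAL pair, and 0 and 184 counts in QTMAN replicates 1 and 2. Against a floor of 3 counts set for QTMAN replicate 1, replicate 2 was 45.7-fold higher. The lower 95% counting limit of the ratio, which takes the error of both counts, was 36.8. At the fourth locus, rows 19088 to 19101, the member of 494 codons at row 19097 stood at 6.68 CPM in the QTRT1 library, 2.47 then 8.58 CPM in the QTGAL pair, and 9.28 then 2.85 CPM in the QTMAN pair. There QTGAL replicate 1 and QTMAN replicate 2 were the low libraries.

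**Figure D3:**
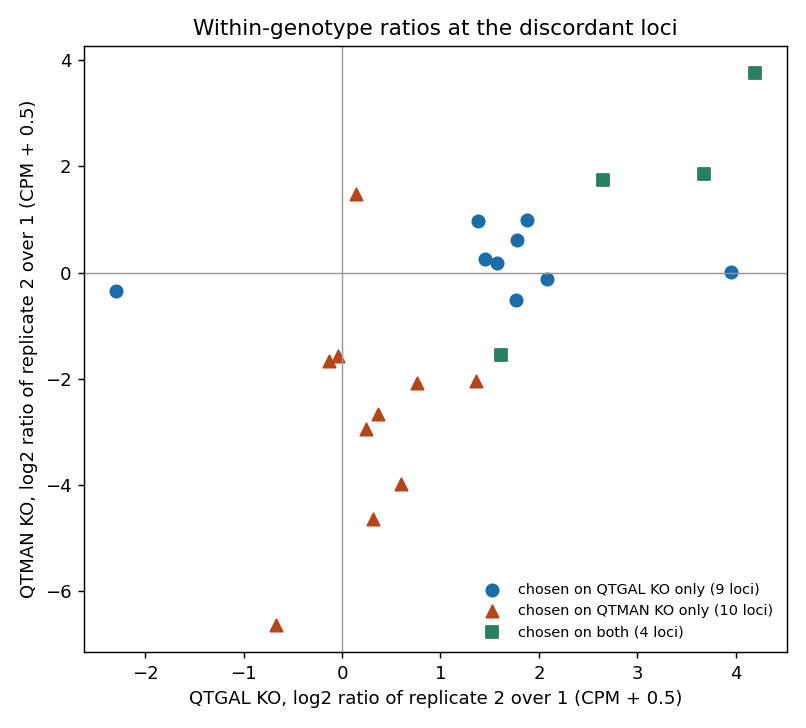
Each point is 1 of the 23 loci, with the log2 ratio of replicate 2 over replicate 1 (CPM + 0.5) within QTGAL knockout on the horizontal axis and within QTMAN knockout on the vertical axis. The 9 loci chosen on QTGAL knockout only and the 10 chosen on QTMAN knockout only spread along their own axis, as the choice itself fixes, and 3 of the 4 loci chosen on both lie at the upper right.

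The libraries of the other genotype also differed at these loci. Over all 13 QTGAL loci, the QTMAN libraries differed by a median absolute log2 ratio of 0.61 on the scale log2(CPM + 0.5). At the 9 of them where the QTMAN pair did not meet the rule, the median was 0.35, with a range from 0.01 to 0.99, which that condition itself keeps low. Over all 27016 transcripts with 5 CPM or more in a QTMAN library the median was 0.15. Over all 14 QTMAN loci, the QTGAL libraries differed by a median of 0.64, and by 0.34 at the 10 where the QTGAL pair did not meet the rule, with a range from 0.04 to 1.36. The median over 27490 transcripts was 0.16. Some of these loci lie far below 5 CPM in the pair not used, where counting error is larger, and what it adds to the difference was not tested.

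Transcripts within a locus were discordant together. Around a locus, no transcript with 5 CPM or more in the pair could be 3-fold apart, since the rule would have joined it to the locus. Between the first and the last member of each locus, 0 transcripts with 5 CPM or more in the pair failed the 3-fold rule. In the 20 rows on each side of the loci, 86 transcripts reached 5 CPM in a QTGAL library and 3 of them differed 2-fold or more in the direction of the locus. For QTMAN knockout these numbers were 73 and 2. Over all transcripts with 5 CPM or more in the pair, 160 of 27490 for QTGAL knockout were at least 2-fold apart in either direction. For QTMAN knockout it was 133 of 27016, and both counts include the members. Only 2 of the 27 loci were a single row, both in QTMAN knockout, and the 115 members held 76 distinct sets of counts, so members of a locus are not independent measurements.

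A pair of adjacent loci is given as an example. The QTMAN locus with uc004ffl.4 (rows 89578 to 89585) ended 11 rows before the QTGAL locus with uc033fan.1 began. In the former QTMAN replicate 1 and the QTRT1 library were high, while in the latter every library but QTGAL replicate 1 was high. The transcript at row 89632, just after the second locus, stood between 23.1 and 32.99 CPM in all 5 libraries.

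**Figure D4:**
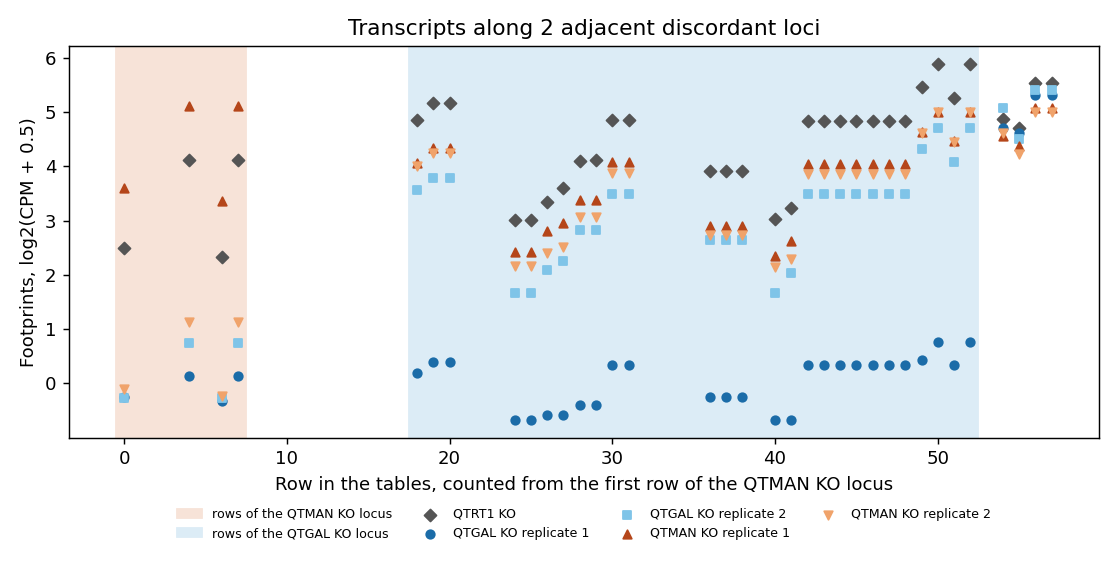
Footprint level, as log2(CPM + 0.5), of each transcript with 5 CPM or more in at least 1 library, by its row counted from the start of the QTMAN knockout locus; shading marks the spans of the 2 loci and points are single libraries. QTGAL replicate 1 (dark blue) lies below all other libraries through the second locus and among them from row 89632 on.

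The coding lengths of the members covered a wide range, from 83 to 2733 codons for QTGAL knockout and from 74 to 4558 for QTMAN knockout. The median over all members was 315 and 377 codons, and over the highest-count members 437 and 556 codons. Over all transcripts with 5 CPM or more in the pair it was 334 and 328 codons, so for QTGAL knockout the order turned with the choice of members counted. The higher library of the highest-count members had a median of 10.9 CPM for QTGAL and 9.44 CPM for QTMAN knockout, while over all those transcripts it was 13.6 CPM for both.

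The loci were not evenly placed in the tables. Rows 85000 to 90000, a window picked after the rows of the members had been seen, held 8 of the 23 loci and 57 of the 115 members, 49.6%. The same window held 3.76% of the 29127 transcripts with 5 CPM or more in any library. No member lay before row 11008 or after row 144168.

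Counted in the same way and without the rows left out, differences within a genotype lay within the range of those between genotypes. The 77 discordant transcripts of QTGAL knockout lay in 13 loci and the 61 of QTMAN knockout in 14. QTGAL replicate 1 differed from QTMAN replicate 1 at 80 transcripts (0.291%) in 17 loci and from QTMAN replicate 2 at 86 (0.317%) in 14 loci. QTGAL replicate 2 differed from QTMAN replicate 1 at 68 transcripts (0.246%) in 20 loci. Fewest were found between QTGAL replicate 2 and QTMAN replicate 2, with 28 transcripts (0.103%) in 8 loci, fewer than between the libraries of either genotype. The QTRT1 library differed from QTGAL replicates 1 and 2 at 110 (0.395%) and 41 transcripts (0.148%), and from QTMAN replicates 1 and 2 at 122 (0.438%) and 103 transcripts (0.375%), in 19 to 42 loci. These pairs share libraries and their counts are not independent, and the number of transcripts leans on loci with many rows: 2 loci held 42 of the 77 QTGAL members.

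**Figure D5:**
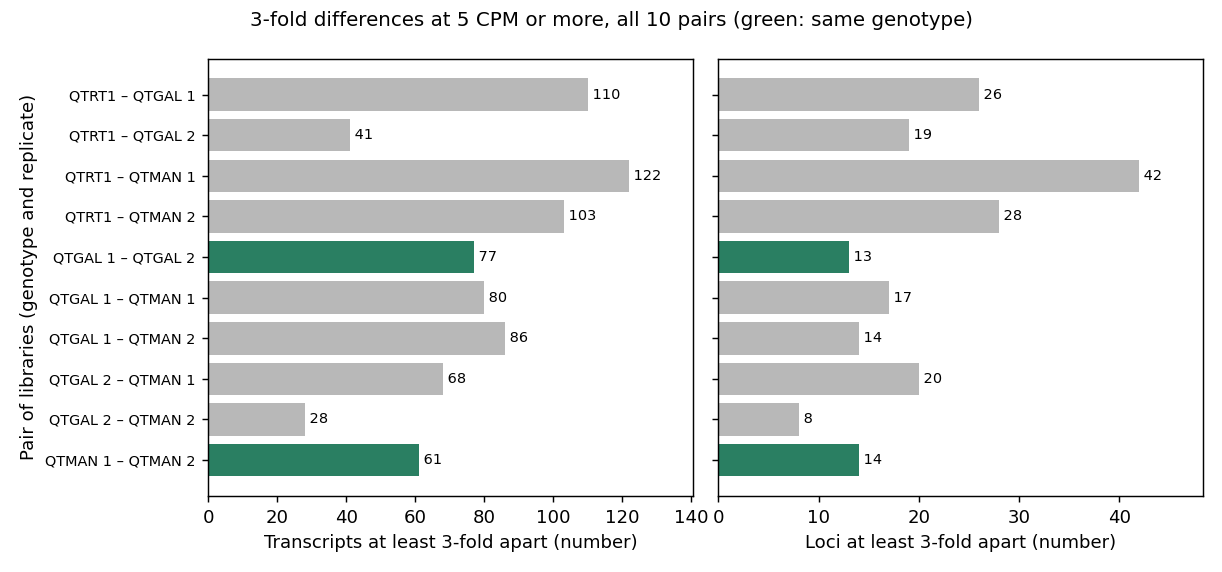
Number of transcripts (left) and of loci (right) at least 3-fold apart with the higher library at 5 CPM or more, for each of the 10 pairs of libraries; green bars are the 2 pairs of the same genotype. The green bars, at 77 and 61 transcripts and 13 and 14 loci, lie within the range of the grey bars.

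Over all rows but those left out by the rule, a single library lay at least 3-fold beyond each of the other 4 in few loci for any library. QTMAN replicate 1 was alone upward at 19 transcripts in 4 loci, and QTGAL replicate 1 alone downward at 23 transcripts in 2 loci. The QTRT1 library was alone upward at 11 transcripts in 5 loci, the most by locus, and alone downward at 1. QTMAN replicate 2 was alone downward at 4 transcripts in 2 loci, QTGAL replicate 2 at 2 transcripts in 1 locus, and QTGAL replicate 2 was alone upward at 1 transcript. QTGAL replicate 1 and QTMAN replicate 2 were alone upward at 0, and QTMAN replicate 1 was alone downward at 0. Here a library alone on the low side was counted only where the other 4 were at 5 CPM or more.

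Whether the members differed between genotypes was read from edgeR's quasi-likelihood test over all 60966 transcripts that passed its filter, which kept all 115 members. For QTGAL against QTMAN knockout 0 of 115 members were called at a Benjamini-Hochberg adjusted p under 0.05, with 0% called among all transcripts. The lowest edgeR adjusted p among the members was 0.568, and 46 members (40%) had an unadjusted p under 0.05 against 6.48% of all transcripts. DESeq2, which adjusted the p of 10 members, called 0 of them, against 6 of 11660 transcripts. The members were chosen on the libraries compared here, so nothing is read from these counts. The same holds for the counts that follow, since these fits still compare libraries that chose the members. Leaving out 1 library of a pair removes the discordance of the members chosen on that pair, while the other pair keeps its own. Leaving out QTGAL replicate 1 or 2 gave 5 or 30 called members, with 0.0152% or 0.107% called among all transcripts. Leaving out QTMAN replicate 1 or 2 gave 6 or 82, with 0.118% or 0.855% among all, and leaving out the QTRT1 library gave 0, with 0% among all. The transcript uc002flb.5, high in 1 of the 2 QTMAN libraries, had a log2 ratio of QTGAL over QTMAN knockout of -6.37 with an SE of 1.77, and its edgeR adjusted p was 0.596.

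For the loci chosen on QTGAL knockout, the comparison of QTRT1 with QTMAN knockout uses other libraries for both means. DESeq2 called 0 of 77 members in the fit of all 5 libraries, against 121 of 37812 transcripts. It had 2 members (2.60%, against 3.25% of all transcripts) under an unadjusted p of 0.05. In its fit of all 5 libraries, edgeR called 0 of the 77 members, against 0.116% of all transcripts. By edgeR, 12 members (15.6%, against 11.4% of all transcripts) had an unadjusted p under 0.05. The 77 members lay in 13 loci and each reached 5 CPM in a QTGAL library, a level not required of all transcripts. The spread in the edgeR fit includes the QTGAL libraries. The count became 14 or 26 without QTGAL replicate 1 or 2, with 0.291% or 0.555% called among all transcripts. It became 6 or 48 without QTMAN replicate 1 or 2, with 0.408% or 1.93% among all. Fitted on the QTRT1 and QTMAN libraries alone, which leaves 1 residual degree of freedom and 1 QTRT1 library assumed to vary like the QTMAN pair, edgeR called 27 of the 77 members in 4 loci, 23 higher and 4 lower in the QTRT1 library, against 0.686% of all transcripts. Among them were uc033fan.1, 0.87 ± 0.15 higher as log2 in the QTRT1 library (SE, edgeR adjusted p = 0.0176), and uc003xed.5, which fell by 2.03 ± 0.34 (SE, edgeR adjusted p = 0.0159). The transcript uc001rqu.4 was higher by 1.0 ± 0.19 (SE, edgeR adjusted p = 0.0314), and the member at row 136508 by 2.49 ± 0.25 (SE, edgeR adjusted p = 0.000649).

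For the loci chosen on QTMAN knockout, QTRT1 was compared with QTGAL knockout in the same way. The fit of all 5 libraries called 0 of 61 members, against 0.00984% of all transcripts, with 4 members (6.56%, against 10.03% of all transcripts) under an unadjusted p of 0.05 by edgeR. DESeq2 gave an adjusted p for 0 of them and an unadjusted p under 0.05 for 2 (3.28%, against 2.68% of all transcripts). At the 4 loci where QTMAN replicate 1 alone was high, the members lay under 1 CPM in the QTRT1 and QTGAL libraries and could hardly be called. For uc002flb.5 the counts were 1 in the QTRT1 library and 10 then 1 in the QTGAL pair, with an SE of 6.74. The 61 members are thus unlike all transcripts in level, and nothing is read from their shares. Without QTMAN replicate 1 or 2 the edgeR count was 4 or 6, with 0.568% or 1.47% called among all transcripts. Without QTGAL replicate 1 or 2 it was 0 in each case, with 0.0118% or 0.369% called among all transcripts. Fitted on the QTRT1 and QTGAL libraries alone, 46 of the 61 members were tested and 4 were called, all higher in the QTRT1 library and all at rows 89578 to 89585, against 0.934% of all transcripts. The transcript uc004ffl.4 was 4.36 ± 0.30 higher as log2 in the QTRT1 library (SE, edgeR adjusted p = 4.94e-14), a 20.6-fold difference. Its level in QTMAN replicate 1 was above that of the QTRT1 library and in QTMAN replicate 2 near that of the QTGAL libraries.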

How the data were processed

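Each deposited file gives, for every transcript, its identifier, a length and an unnormalized footprint count in whole numbers. The length column, a value of unit other than a count, was deposited without a header and read as codons. Tools listed per the submitters' processing notes are STAR 2.7.0a, bcl2fastq 2.19 and CASAVA, with the build hg38. Annotation, strand and counting program: not given in the sources used here. Footprints shared by isoforms or like genes may be counted for each.

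CPM values were computed on each file's sum. Groups came from the genotype labels. Tests used edgeR 4.0.16 in R 4.3.3 (filterByExpr, TMM, 1 mean per genotype, 2 residual degrees of freedom, Benjamini-Hochberg over 60966 transcripts), and DESeq2 1.42.0 as an alternative. The SE is the log2 fold change over the square root of F. The test was tested on simulated data. The members, lists and rules were chosen with earlier results of these data known. Identifiers were printed for the 2 loci per genotype and higher library with the highest CPM, since no table paired them with genes; other loci are given by row.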

Additional observations from a re-analysis of the deposited data

How the results depend on the processing

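The number of members followed the thresholds. With 2-fold in place of 3-fold there were 160 QTGAL and 133 QTMAN transcripts in 53 and 42 loci. With 4-fold, QTGAL loci numbered 8, and 39 QTMAN transcripts lay in 9 loci. A level of 2 CPM gave 167 and 148 transcripts in 47 and 34 loci, and 10 CPM gave 31 and 21 transcripts in 7 and 6 loci. TMM library sizes and joining over 10 or 50 rows kept these counts within 1.5 times. The share of loci where replicate 1 stood out was 61.5% for QTGAL knockout, and from 56.6% to 76.9% under the alternatives. For QTMAN knockout it was 64.3%, and from 61.9% to 77.8%.

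Counts of called members started from 0 in all 3 comparisons, in the order QTGAL against QTMAN, QTRT1 against QTMAN (QTGAL members) and QTRT1 against QTGAL (QTMAN members). Without a filter on low counts they were 50, 18 and 4, with 282, 1159 and 645 of 79348 transcripts called in all. With the replicate block (first number of the title, 1 residual degree of freedom) they were 17, 24 and 10, with 49, 567 and 145 of 60966 called in all. The labels do not say that the number pairs libraries, and deviations of libraries with the same number correlated at 0.174 across transcripts. Fits on the compared libraries alone gave 27 and 4 in the latter comparisons. Leaving out 1 library gave ranges of 0 to 82, 6 to 48 and 0 to 6. Without QTGAL replicate 1 the counts were 5, 14 and 0, without QTGAL replicate 2 they were 30, 26 and 0, 6, 6 and 4 without QTMAN replicate 1, and 82, 48 and 6 without QTMAN replicate 2. Such fits drop the discordance from the spread only where a library of the pair that chose the members is left out. Otherwise the discordant pair stays in the spread. The lone library left of a genotype is assumed to vary like the others. DESeq2, its size factors in edgeR, a stricter filter (5 CPM or more in 2 libraries) and counting 1 transcript per locus gave 0. DESeq2 adjusted the p of 10, 77 and 0 members, and in all called 6 of 11660, 121 of 37812 and 71 of 11660 transcripts. With its size factors in edgeR, 0, 78 and 11 of 60966 were called in all. The stricter filter kept 73, 62 and 34 members, with 0, 26 and 4 of 27375 transcripts called in all. Without the QTRT1 library the first comparison gave 0. Other pseudocounts and library sizes for the log2 ratio of each locus were added after seeing the data. For levels under 1 CPM that ratio depends on the pseudocount, and depth limits what is read there.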
